A study of Homo sapiens with 2 samples.

Results

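The regions described here are ING5 peaks whose summit lay upstream of a protein-coding gene that has no other protein-coding gene starting close by on the opposite strand. ING5 is a chromatin protein whose plant homeodomain finger binds methylated histone H3, and it is a subunit of histone acetyltransferase complexes. Untreated HepG2 cells, an established line from a human liver cancer, gave 1 ChIP library, made with an antibody against ING5, and 1 library of input DNA, which was the control of the peak calls. A member was a peak on chromosomes 1 to 22 or X with its summit 1 to 1000 bp upstream of the nearest canonical transcription start site (TSS) of a protein-coding gene, where no canonical protein-coding TSS of the opposite strand lay within 1000 bp of that TSS. Such a TSS is called unpaired. There were 727 members among 8608 peaks, at 716 of 17832 unpaired TSSs (4.02%). Positions were read as GRCh38. The peak list carries no expression values, so the labelled cell line was not checked against markers.

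Most mammalian promoters of CpG islands are transcribed in both directions. The RNA made away from the gene is usually short-lived, but at many genes it has been annotated as a long noncoding RNA (lncRNA) that starts on the opposite strand just upstream, often named with the suffix DT for divergent transcript or AS for antisense. Methylation of histone H3 that ING proteins bind marks the nucleosomes on both sides of an active start.

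Sequence upstream of the start is shown first for members where it holds both starts or the summit itself. Each is the 250 bases before the gene's start, on the gene's strand, from the RefSeq promoter table of GRCh38.p14, for the most significant members whose RefSeq and canonical starts coincide and whose nearest antisense lncRNA start, or summit, lies well inside that stretch. In the first 4, capitals mark the stretch from the antisense lncRNA start, included, up to the gene's start. These are the promoters of NIPBL (chr5:36876519-36876768, plus strand), LRRK1 (chr15:100919107-100919356, plus strand), RICTOR (chr5:39074400-39074649, minus strand) and RPS21 (chr20:62386853-62387102, plus strand).
NIPBL: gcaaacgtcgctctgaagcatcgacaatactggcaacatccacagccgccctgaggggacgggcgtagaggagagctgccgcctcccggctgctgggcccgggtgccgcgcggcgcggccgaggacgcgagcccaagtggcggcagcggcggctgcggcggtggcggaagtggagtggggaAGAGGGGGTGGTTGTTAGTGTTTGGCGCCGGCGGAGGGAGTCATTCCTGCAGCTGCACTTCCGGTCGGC
LRRK1: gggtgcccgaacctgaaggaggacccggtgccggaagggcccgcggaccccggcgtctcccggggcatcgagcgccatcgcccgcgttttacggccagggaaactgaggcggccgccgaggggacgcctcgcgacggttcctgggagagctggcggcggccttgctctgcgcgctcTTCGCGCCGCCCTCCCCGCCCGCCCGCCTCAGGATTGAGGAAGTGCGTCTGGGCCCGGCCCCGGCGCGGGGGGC
RICTOR: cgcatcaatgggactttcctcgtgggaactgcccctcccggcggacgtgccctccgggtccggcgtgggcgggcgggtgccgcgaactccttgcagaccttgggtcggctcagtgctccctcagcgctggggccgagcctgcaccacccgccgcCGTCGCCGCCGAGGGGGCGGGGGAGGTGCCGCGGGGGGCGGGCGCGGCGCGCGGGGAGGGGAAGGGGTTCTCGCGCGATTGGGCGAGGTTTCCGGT
RPS21: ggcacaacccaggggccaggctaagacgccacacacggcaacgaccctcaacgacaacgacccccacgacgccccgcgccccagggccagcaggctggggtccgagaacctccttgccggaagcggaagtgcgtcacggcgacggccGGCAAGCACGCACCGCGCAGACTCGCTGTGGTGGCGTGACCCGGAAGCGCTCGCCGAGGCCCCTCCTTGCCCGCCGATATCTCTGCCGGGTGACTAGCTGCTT
The gene and the nearest lncRNA start stood 69, 74, 96 and 103 bp apart in NIPBL, LRRK1, RICTOR and RPS21, in that order, and the ING5 summits lay beyond that start in all 4, at 486, 164, 626 and 505 bp upstream of the gene. The peaks covered 119, 193, 95 and 112 of the 250 bases, in the same order. The GC box GGGCGG, or its complement CCGCCC, occurred 1 time in NIPBL, 3 times in LRRK1, 4 times in RICTOR and 0 times in RPS21.

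In 3 further members the summit itself lay inside the 250 bases, and capitals mark the 21 bases centred on it. They are RARRES1 (chr3:158732458-158732707, minus strand), ALDH5A1 (chr6:24494719-24494968, plus strand) and TBC1D7 (chr6:13328538-13328787, minus strand).
RARRES1: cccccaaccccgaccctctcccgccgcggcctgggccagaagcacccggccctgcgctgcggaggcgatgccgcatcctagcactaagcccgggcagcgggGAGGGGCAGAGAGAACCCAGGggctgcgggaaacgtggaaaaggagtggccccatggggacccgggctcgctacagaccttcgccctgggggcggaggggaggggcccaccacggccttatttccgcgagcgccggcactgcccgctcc
ALDH5A1: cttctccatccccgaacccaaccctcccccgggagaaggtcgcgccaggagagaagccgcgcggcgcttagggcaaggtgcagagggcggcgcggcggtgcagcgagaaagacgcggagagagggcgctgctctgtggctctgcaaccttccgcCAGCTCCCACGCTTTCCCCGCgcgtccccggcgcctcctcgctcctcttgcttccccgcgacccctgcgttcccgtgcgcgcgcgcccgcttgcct
TBC1D7: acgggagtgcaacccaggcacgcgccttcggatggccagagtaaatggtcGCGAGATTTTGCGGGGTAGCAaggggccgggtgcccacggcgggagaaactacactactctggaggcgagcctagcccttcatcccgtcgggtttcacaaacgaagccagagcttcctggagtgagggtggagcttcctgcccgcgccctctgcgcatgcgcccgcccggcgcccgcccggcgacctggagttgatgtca
The summits stood 139, 86 and 190 bp upstream of RARRES1, ALDH5A1 and TBC1D7, in that order. RARRES1 and ALDH5A1 had no antisense lncRNA start within 1000 bp, and TBC1D7 had one at 37 bp. The ALDH5A1 summit lay 16 bp downstream of a noncanonical protein-coding start of the same strand. Such a start is that of any noncanonical transcript of a protein-coding gene, whether or not the transcript itself is coding. Along the opposite strand, noncanonical protein-coding starts lay 316 bp before the ALDH5A1 summit and 239 bp before that of RARRES1. The peak covered all 250 bases at RARRES1 and ALDH5A1.

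The most significant members lay at genes of varied function, several beside an annotated antisense lncRNA. HOXA11, a homeobox gene of limb and reproductive tract development, had the most significant one, on chromosome 7 from 27185425 to 27186619, with 37 fragments at the summit and 20.5-fold enrichment over the local background. Its summit lay 680 bp upstream, and the nearest start of HOXA11-AS was 3 bp upstream of the gene. A taller ING5 peak at HOXA11, with 50 fragments, ran from 74 to 2623 bp downstream. The summit of that peak, 1695 bp downstream, lay outside the 1000 bp window. Pileup, the number of ChIP fragments over the summit, and fold enrichment are the authors' values for single peaks. UBTF, which encodes a transcription factor of ribosomal DNA, had 32 fragments and 17.8-fold enrichment at 771 bp upstream. KAT6B, the catalytic subunit of an acetyltransferase complex that holds ING5, had 31 fragments and 17.3-fold enrichment at 948 bp upstream. At UBTF and KAT6B the summit lay 408 and 38 bp downstream of a noncanonical start of the same strand.

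NIPBL, the cohesin loader gene, had the tallest pileup of all members, 45 fragments, over a raised local background of 3.13 fragments that brought its enrichment to 11.1-fold. RICTOR, a subunit gene of mTOR complex 2, had 41 fragments over a background of 3.66 and 9.02-fold enrichment. Both are on chromosome 5. HEXIM2, whose product holds back transcription elongation, had 27 fragments and 15.1-fold enrichment at 909 bp upstream. The kinase gene LRRK1 and the gene ARHGDIA had 26 fragments and 14.6-fold enrichment each. RPS21, a ribosomal protein gene, and CTDSP1, a phosphatase gene, had 24 fragments and 13.5-fold enrichment each. ZNF622 had 30 fragments over a background of 1.91, SPG7, which encodes a mitochondrial protease, 23 and GID8, a ubiquitin ligase subunit gene, 23. ZBED5 had 26 fragments and the deubiquitinase gene USP24 had 23.

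**Figure D1:**
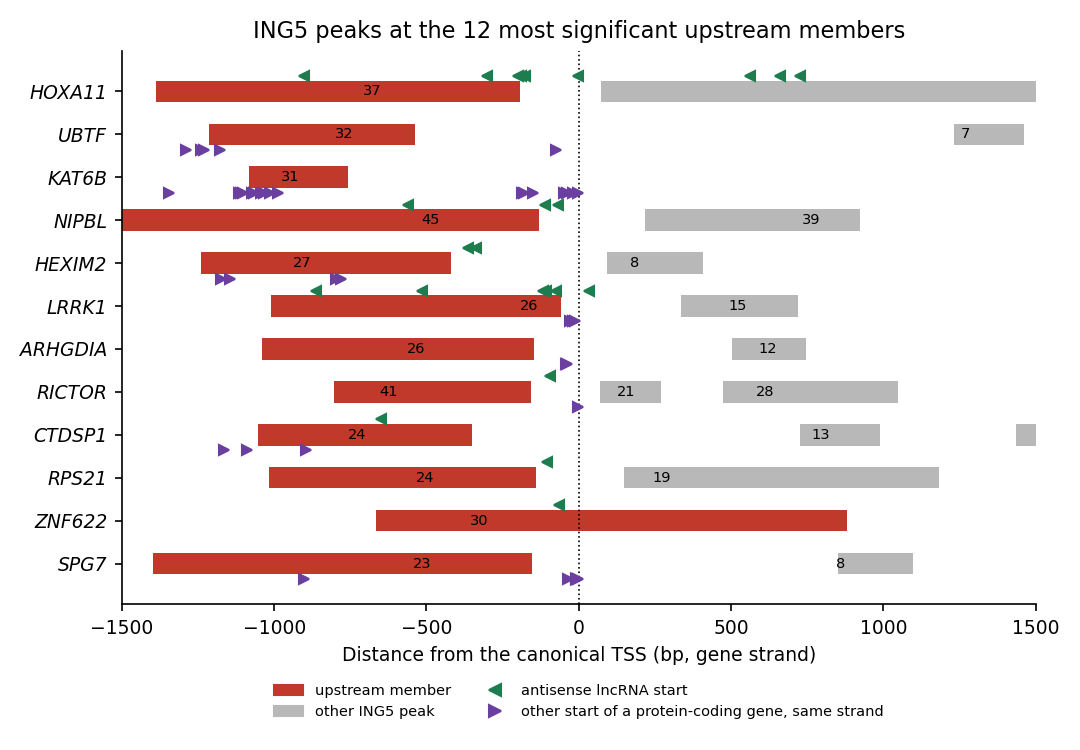
ING5 peaks at the 12 most significant upstream members, 1 row per gene, against distance from the canonical TSS in bp on the gene's strand. Red bars are members and grey bars other ING5 peaks, cut at the plot's edges. Pileup in fragments is written at summits that lie away from those edges, so that of the grey peak of HOXA11 is not shown. Green arrowheads are starts of lncRNA transcripts of the opposite strand and purple ones other starts of protein-coding genes on the same strand. Of the 12 red bars only that of ZNF622 crosses the TSS. At HOXA11, NIPBL, HEXIM2, RICTOR, CTDSP1, RPS21 and ZNF622 the green arrowhead nearest the TSS lies between the TSS and the summit. At LRRK1 the nearest one lies downstream of the TSS.

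Away from the top the members were small. The median pileup was 11 fragments (quartiles 10 and 14, range 7 to 45), the median enrichment 6.06-fold and the median length 303 bp (95% interval 292 to 321, range 183 to 1714 bp). The shortest length equals the fragment size of the calls, 183 bp. The 4079 peaks with summits 1 to 1000 bp downstream of unpaired TSSs had a median pileup of 13 fragments, a median enrichment of 7.01-fold and a median length of 387 bp (378 to 397). Of the members 47 (6.46%, 4.79 to 8.50) reached 20 fragments, against 473 downstream peaks (11.6%, 10.6 to 12.6). Lengths of 1000 bp or more were found for 22 members (3.03%, 1.91 to 4.55) and 240 downstream peaks (5.88%, 5.18 to 6.65). With 1 library the variation between replicates could not be estimated, and no test was run. Intervals for shares are exact binomial and those for medians come from order statistics, at 95%, and both cover counting error only.

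Length went with pileup in both classes, so lengths were also set side by side at like pileups. At 9 or 10 fragments the median length was 262 bp for members (244 to 278) and 287 bp for downstream peaks (275 to 301). At 11 or 12 fragments it was 290.5 bp for members (257 to 323) and 340 bp for downstream peaks (324 to 355). At 13 or 14 fragments it was 362 bp for members and 390 bp for downstream peaks, and at 15 to 17 fragments 464 bp for members and 488 bp for downstream peaks. At 25 fragments or more it was 751 bp for 17 members and 975.5 bp for downstream peaks. At 7 or 8 fragments the order was the other way, with 248 bp for members and 235 bp for downstream peaks. Of these classes, that of 11 or 12 fragments was the one whose intervals did not overlap. The longest members were at KAZALD1 with 1714 bp, ZNF622 with 1548 bp and the mitochondrial ribosomal gene MRPL12 with 1513 bp, and all 3 crossed the TSS.

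Summits were scarce right at the start and fullest farther upstream. The median distance was 467 bp upstream for members (449 to 487) and 413 bp downstream for the downstream peaks (403 to 422). The fullest 100 bp bins held 113 members each, from 301 to 400 and from 401 to 500 bp upstream, while the first 100 bp upstream held 41. Members were 15.1% (14.1 to 16.2) of all summits within 1000 bp of unpaired TSSs, against 5.05% (3.60 to 6.87) for the 38 upstream summits at paired TSSs. The 2 shares are not on an equal footing, since a summit upstream of one paired TSS can lie past the opposite TSS, nearest to it, and then counts as downstream. The last 100 bp inside the window, from 901 to 1000 bp, held 30 members with a median pileup of 12 fragments, and the next 100 bp outside it held 25 summits with a median of 11. The members nearest the TSS were those of HMGN4 and EDN1, each 1 bp upstream, and TXNDC12 at 2 bp; the farthest were those of KCTD11 at 996 bp, OSMR at 994 bp and IRS2 at 990 bp.

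**Figure D2:**
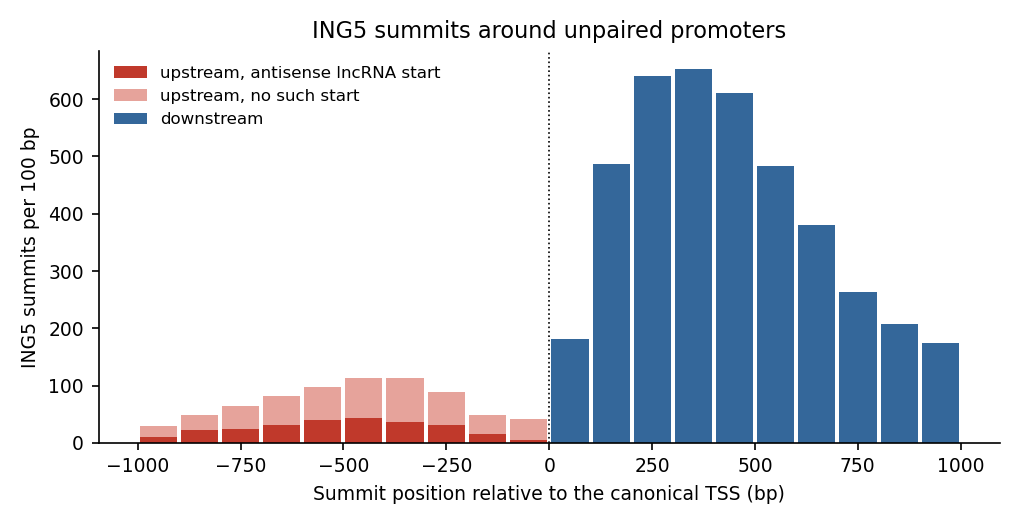
ING5 summits per 100 bp (vertical axis) by position relative to the canonical TSS in bp (horizontal axis) at unpaired promoters. The upstream bars, at most 113 summits, are split into members with an antisense lncRNA start (dark red) and without one (light red); the blue downstream bars reach 652 summits between 301 and 400 bp.

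Few members reached the start itself. The peak interval covered the TSS at 82 members (11.3%, 9.07 to 13.8) and at 502 downstream peaks (12.3%, 11.3 to 13.4). For the other 645 members the nearer edge stood a median of 325 bp from the TSS (299 to 348), against 218 bp (209 to 227) for the other 3577 downstream peaks.

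An antisense lncRNA start was annotated 1 to 1000 bp upstream of the TSS for 260 members (35.8%, 32.3 to 39.4), against 810 downstream peaks (19.9%, 18.6 to 21.1) and 12.1% of all unpaired TSSs. The 260 members stood beside 257 lncRNA genes, of which 66 carry the suffix DT, 53 carry AS and 114 have an Ensembl identifier only. Among TSSs with an upstream summit alone the share was 34.1% (29.0 to 39.6), among those with summits on both sides 37.4% (32.5 to 42.4), and among those with a downstream summit alone 18.1% (16.9 to 19.4). Read from the other side, 257 of 2149 unpaired TSSs with an antisense lncRNA start had an upstream summit (11.96%, 10.6 to 13.4), against 459 of 15683 without one (2.93%, 2.67 to 3.20). A downstream summit was also found at a larger share beside such a start, at 36.6% (34.6 to 38.7) of TSSs with one and 20.1% (19.4 to 20.7) of TSSs without. Among TSSs that had a downstream summit, an upstream one was present at 18.4% (15.8 to 21.3) with an antisense lncRNA start and 7.73% (6.82 to 8.72) without one. Whether these lncRNAs were transcribed in the cells was not measured.

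Most of these summits lay past the lncRNA start in the direction of its transcription; whether they lay within the lncRNA was not measured. This held for 232 of 260 members (89.2%, 84.8 to 92.7), with the lncRNA start taken as the one nearest the gene. That start stood a median of 146 bp upstream of the gene (129 to 170) and the summit of the same members 494.5 bp (463 to 523), so starts this near the gene leave most summits past them whether or not the positions are related. The median distance from that start to the summit was 309.5 bp (285 to 327), and the fullest 100 bp bin, from 300 to 400 bp past the start, held 56 members. Taking in place of it the lncRNA start nearest the summit, a choice that draws the value towards 0, gave 207 bp (171 to 248). HSPA4, a heat shock protein gene, had its summit 373 bp past the start of an antisense lncRNA, and EIF3J, a translation initiation factor gene, had its summit 536 bp past that of EIF3J-DT.

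Where the lncRNA start stood within 400 bp of the gene, the summit was farther from the gene with a farther start. With that start 1 to 100 bp upstream of the gene, the median summit was 409.5 bp upstream (331 to 460, 84 members); with the start at 101 to 200 bp it was 491 bp (449 to 520, 75 members), and at 201 to 400 bp 561.5 bp (528 to 657, 62 members). Measured from the lncRNA start, the same 3 medians were 333, 333 and 300.5 bp. With the start at 401 to 700 bp the median summit was 708.5 bp upstream of the gene, but over 26 members with a wide interval of 463 to 780. The 13 members with the start beyond 700 bp had a median of 279 bp, and 1 of them lay past the lncRNA start. Across all 260 members the distances of the lncRNA start and of the summit from the gene had Pearson's r = 0.17 and a Spearman coefficient of 0.28, and across the 221 with the start within 400 bp, which leaves out the members beyond 700 bp, r = 0.28 and a Spearman coefficient of 0.31. Across 700 downstream peaks with the start within 400 bp the same distances had r = 0.02 and a Spearman coefficient of 0.04. Both distances are measured from 1 TSS, and the values describe peaks of 1 library.

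**Figure D3:**
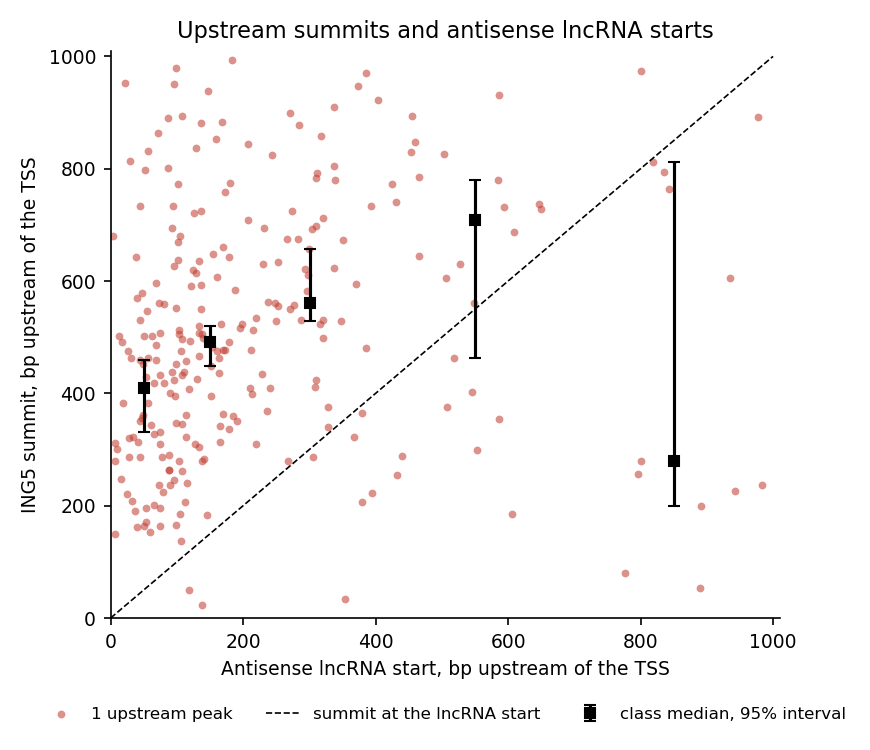
Distance of the ING5 summit upstream of the gene (vertical axis, bp) against that of the antisense lncRNA start (horizontal axis, bp) for 260 members, 1 point each. Squares are medians of 5 classes of lncRNA start with 95% intervals, and points above the dashed line, 232 of 260, have the summit past the lncRNA start.

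Other kinds of annotated start were also found near members, in part the same members, such as HEXIM2 and CTDSP1, as those with an antisense lncRNA start. For 197 members (27.1%, 23.9 to 30.5) the summit was 1 to 1000 bp downstream of a noncanonical start of any protein-coding gene on the gene's strand. The median distance was 233 bp (193 to 268), and 85.7% (84.6 to 86.8) of downstream peaks lay past such a start. The coding status of the transcript was not used. PPARG, the nuclear receptor of fat cell formation, had such a start 741 bp before its summit, and HNRNPH1, an RNA-binding protein gene, 121 bp before it. For 53 members (7.29%, 5.51 to 9.43) the summit lay downstream of a noncanonical protein-coding start of the opposite strand, among them GID8 at 312 bp, against 60 downstream peaks (1.47%, 1.12 to 1.89). Neither comparison is on an equal footing. A downstream summit lies past starts of the gene's strand near the canonical TSS by position alone. An upstream summit likewise lies past such starts of the opposite strand. With noncanonical protein-coding starts and lncRNA starts on either strand, and other noncoding or pseudogene starts on the opposite strand, 450 members (61.9%, 58.3 to 65.4) had an annotated start from which the summit lay 1 to 1000 bp downstream, and 277 had none. The same count was not made for downstream peaks or for other positions near genes, so the 61.9% is not known to be particular to members. The 277 had a median pileup of 11 fragments and a median length of 287 bp (264 to 305), and their median summit was 463 bp upstream (417 to 487).

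The upstream peaks with no antisense lncRNA start, no downstream peak and no alternative start of the same strand were led by GID8, with 23 fragments at 507 bp, and USP24, with 23 at 298 bp. After them came ACTB, the gene of cytoplasmic actin, with 21 fragments at 528 bp, KDM6A, a histone H3 demethylase gene, with 20 fragments at 541 bp, and SGSM2 with 20 fragments at 466 bp. ZNF487 and TBC1D24 had 19 fragments each, at 667 and 495 bp, and FAM174C had 17 at 400 bp. None of these peaks covered the TSS.

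Many members stood opposite another ING5 peak across the start. A downstream summit within 1000 bp of the same TSS was present for 396 members (54.5%, 50.8 to 58.1), against 22.1% of all unpaired TSSs. At the level of TSSs this made 388 promoters with both peaks. The 22.1% takes in TSSs poor in CpG, few of which had a summit. In the highest of 5 equal classes of unpaired TSSs by upstream CpG observed over expected, a downstream summit was at 40.2% (38.6 to 41.9). That class held 416 of the 716 TSSs of members. An upstream summit was present at 9.87% (8.95 to 10.8) of TSSs with a downstream one and at 2.36% (2.11 to 2.63) of those without. Over the pairs the median distance from the TSS was 481 bp for the upstream summit (460 to 519) and 484.5 bp for the downstream one (457 to 504). Within a pair the distances did not go together, with r = -0.09 and a Spearman coefficient of -0.08 over the 388 pairs. OSMR, for example, had its summits 994 bp upstream and 277 bp downstream. The summits of a pair stood a median of 980 bp apart (944 to 1042). The stretch between the edges of the 2 peaks had a median of 524 bp (490 to 572). Its smallest value was 184 bp, beside a fragment size of 183 bp in the calls, so no closer peaks appear as a pair. Of members 1 to 100 bp upstream 24.4% had a downstream summit, and of those 901 to 1000 bp upstream 70%. The part of the peak calling in these shares and distances was not tested.

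The upstream peak of a pair was usually the smaller. Its median pileup was 11 fragments (11 to 12), against 15 (14 to 16) for the downstream peak of the same promoter. The upstream peak was the higher at 94 promoters (24.2%, 20.05 to 28.8), the downstream one at 270 (69.6%, 64.7 to 74.1), and 24 had equal pileups. Lengths followed, with medians of 313 bp upstream (297 to 341) and 461 bp downstream (416 to 512). The 2 pileups of a promoter had r = 0.35 and a Spearman coefficient of 0.22 over the 388 pairs, which share a library and a region. With an antisense lncRNA start the upstream peak was the higher at 47 of 145 promoters (32.4%, 24.9 to 40.7), and without one at 47 of 243 (19.3%, 14.6 to 24.9). The median ratio of upstream to downstream pileup was 0.857 (0.800 to 0.938) with such a start and 0.722 (0.682 to 0.769) without.

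Pairs leaned to either side at well-known genes. HEXIM2 leaned most to the upstream peak, with 27 fragments there and 8 downstream. SPG7 had 23 and 8, ARHGDIA 26 and 12, RICTOR 41 and 28, and NIPBL 45 and 39, in the same order. The other way stood CDKN1B, a gene that holds back the cell cycle, with 17 fragments upstream and 53 downstream. OSMR, a cytokine receptor gene, had 28 and 65, the transcription factor gene CEBPD 16 and 39, NFE2L2, a regulator of the response to oxidants, 19 and 30, and ARF1, a GTPase gene of vesicle traffic, 12 and 30. The upstream peak of OSMR stood over a local background of 3.59 fragments, above the genome-wide 0.853.

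**Figure D4:**
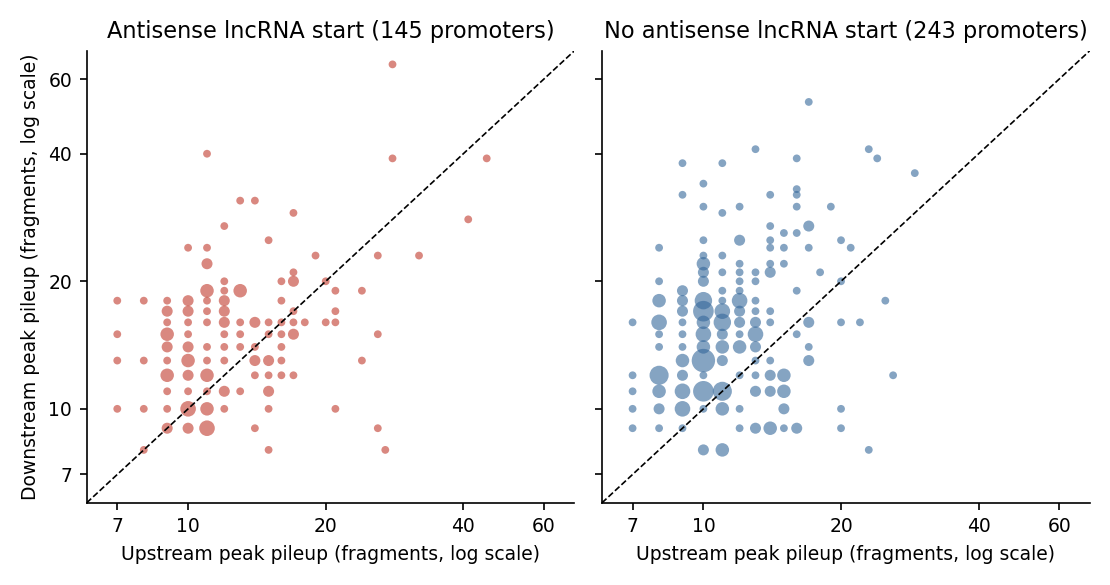
Pileup of the downstream peak (vertical axis, fragments, log scale) against that of the upstream peak (horizontal axis, fragments, log scale) at 388 promoters with both, split by an antisense lncRNA start (145 promoters, left) or none (243, right). Point area is proportional to the number of promoters at that pair of values, and points below the dashed line, 47 in each panel, have the higher pileup upstream.

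The sequence upstream of the members' genes was rich in CpG. Base composition was read in GRCh37 at the start of the same transcript and joined by gene, which gave values for all 716 TSSs of members. In the 1000 bp upstream the median GC share was 61.55% (61.0 to 62.4) at members and 54.6% (54.3 to 54.9) at TSSs with a downstream summit alone, and the median ratio of CpG observed to expected was 0.776 (0.764 to 0.787) against 0.686 (0.681 to 0.693). In the 1000 bp downstream the 2 classes were closer, with a median GC share of 63.25% (62.6 to 64.3) at members and 62.3% (62.0 to 62.6) at the others, and CpG ratios of 0.769 (0.753 to 0.783) and 0.758 (0.751 to 0.765). The CpG ratio was higher upstream than downstream of the TSS at 51.1% (47.4 to 54.8) of members' TSSs and at 33.3% (31.7 to 34.9) of those with a downstream summit alone.

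Upstream summits were counted within 5 equal classes of the unpaired TSSs, ordered by the CpG ratio of the upstream 1000 bp. In the highest class 164 of 853 TSSs with an antisense lncRNA start had one (19.2%, 16.6 to 22.03), against 252 of 2713 without such a start (9.29%, 8.22 to 10.4). In the next class the shares were 10.99% (8.67 to 13.7) with such a start and 3.83% (3.16 to 4.58) without, and in the middle class 3.42% (1.88 to 5.68) with and 2.19% (1.70 to 2.76) without, whose intervals overlapped. In the lower classes upstream summits were few, at 8 of 181 TSSs with such a start (4.42%, 1.93 to 8.52) and 21 of 3384 without (0.621%, 0.385 to 0.947) in the second class, and at 1 of 69 with and 5 of 3497 without in the lowest. Downstream summits were also at a larger share beside an antisense lncRNA start in every class. The shares were 5.797% (1.60 to 14.2) with such a start and 1.26% (0.916 to 1.69) without in the lowest class, and 25.97% (19.7 to 32.99) with and 9.60% (8.63 to 10.6) without in the second. They were 31.3% (26.8 to 36.04) with and 23.7% (22.2 to 25.2) without in the middle class, and 37.05% (33.3 to 40.9) with and 32.9% (31.2 to 34.7) without in the next. In the highest class they were 43.6% (40.3 to 47.01) with and 39.2% (37.3 to 41.05) without. The intervals of the downstream shares overlapped in the lowest class and in the highest 2.

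**Figure D5:**
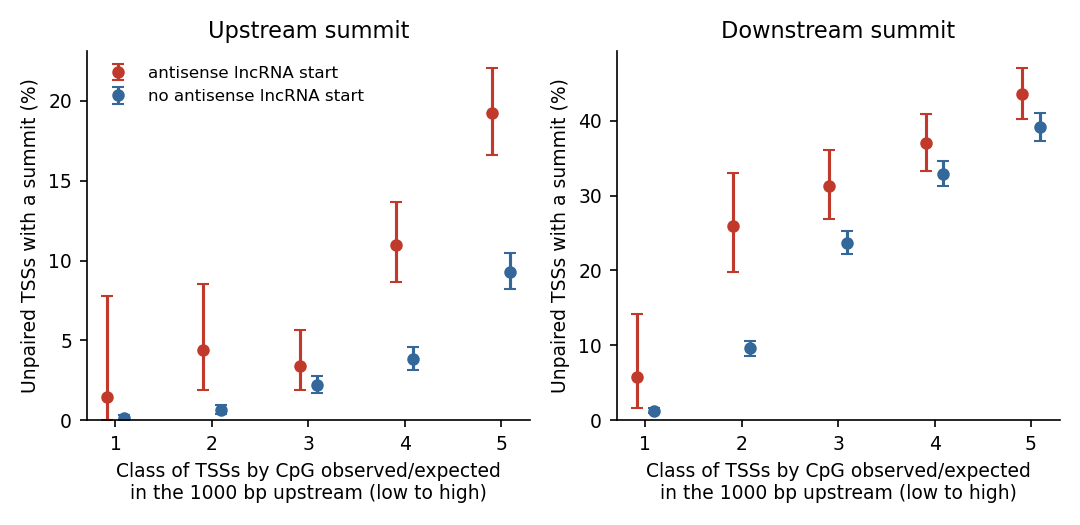
Percent of unpaired TSSs with an upstream summit (left) or a downstream summit (right) in 5 equal classes of TSSs by CpG observed over expected in the upstream 1000 bp, low to high, with an antisense lncRNA start (red) or without (blue). Bars are exact binomial 95% intervals, and in the highest class the upstream shares are 19.2% with such a start and 9.29% without.

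Of the motifs searched from 250 bp before to 50 bp after the TSS on either strand, the GC box (GGGCGG or CCGCCC) was present at 79.7% (76.6 to 82.6) of members' TSSs, against 60.2% of all unpaired TSSs. The TATA motif (TATAAA or TTTATA) was present at 4.33% (2.96 to 6.09) of members' TSSs against 10.3% of all unpaired, and CCAAT (or ATTGG) at 30.2% (26.8 to 33.7) against 35.6%. Matches of different motifs can share bases and were counted for each motif on its own, and a match is not a bound site. TSSs with a downstream summit alone held the GC box at 78.9% and the TATA motif at 4.88%, close to members. They held CCAAT at 35.3% (33.8 to 36.9), an interval just above that of members.

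By gene group, upstream summits were counted in 22 lists against 4.02% of all unpaired genes. Cytosolic ribosomal protein genes had one at 10 of 71 (14.1%, 6.97 to 24.4), RPS21 with 24 fragments and RPL8 with 14 first among them. Factors of the bZIP and immediate-early families had one at 7 of 42 (16.7%, 6.97 to 31.4), namely NFE2L2, CEBPD, MYC, CREB1, ATF1, JUN and JUND. Histone lysine demethylases and methyltransferases had one at 6 of 38 (15.8%, 6.02 to 31.3), with KDM6A at 20 fragments and SETD1B, beside LINC01089, at 13. These are the 3 of 22 lists whose interval lay above 4.02%. The 4.02% takes in TSSs poor in CpG, few of which had a summit. In the highest CpG class an upstream summit was at 11.7% (10.6 to 12.8) of unpaired TSSs, a share inside all 3 intervals. The lists were not split by CpG class. Downstream summits were at 67.6%, 28.6% and 55.3% of the same 3 lists, in that order, against 22.1% of all unpaired genes.

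Among the other 19 lists, translation initiation factors had an upstream summit at 5 of 47, nuclear receptors at 4 of 38 (PPARG with 18 fragments, NR2C2 with 13), heat shock and DNAJ chaperones at 5 of 62 (HSPA8 with 17, HSPA4 with 14) and homeobox factors at 9 of 144 (HOXA11, and POU6F1 with 11). All 5 members among the chaperones and all 5 among the initiation factors also had a downstream peak. Zinc finger ZNF genes had one at 19 of 465 (4.09%, 2.48 to 6.31) and SLC transporters at 16 of 353 (4.53%, 2.61 to 7.26), both near the share over all genes. ING and MYST acetyltransferase genes had one at 2 of 22, KAT6B with 31 fragments and EPC2, a subunit gene of the TIP60 complex, with 9. Protein phosphatase genes had 1 of 107, PPP1CB, beside PPP1CB-DT. The remaining 11 lists held from 1 to 14 members each, and their intervals all included 4.02%.

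By chromosome, unpaired TSSs carried an upstream summit most often on chromosomes 5 (6.98%, 5.30 to 8.99), 9 (6.97%, 5.17 to 9.17) and 16 (6.89%, 5.17 to 8.96), and least often on X (0.639%, 0.208 to 1.49). Downstream summits were at 27.2%, 27.0% and 26.9% on chromosomes 5, 9 and 16, in that order, against 22.1% of all unpaired TSSs. They were at larger shares on chromosomes 15 (29.8%) and 3 (29.1%), and at 9.21% on X. Of the members 475 (65.3%, 61.8 to 68.8) stood at the genome-wide background of 0.853 fragments, against 60.8% (59.3 to 62.3) of downstream peaks. The median background of members was 0.877 on chromosome 5 and 0.853 on chromosomes 9, 16 and X. On chromosome 6 it was 0.905, with an upstream summit at 2.47% (1.57 to 3.69) of unpaired TSSs. The highest background of a member, 4.15 fragments, was at RHOG on chromosome 11. The part of the local background in the counts by chromosome was not tested. At the genome-wide background alone the median pileup was 11 fragments for members and 12 for downstream peaks.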

How the data were processed

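The ChIP library held 12416160 fragments (12416135 after filtering) and the input library 9915170, per the file headers, which name the ChIP library by a code that no label uses. Per the file headers, MACS2 2.1.1.20160309 called the peaks against the input from read pairs with a p cutoff of 1e-05. Per the submitters' processing notes, the other tools were deepTools, Bowtie2 and fastp 0.19.6. The deposited pileup is a coverage signal in whole fragments. The deposited fold enrichment was read as a ratio of that pileup to the background nearby, with 1 added to each. The deposited significance columns are −log10 p-values and q-values. The headers call the q-values not calculated, and they were not used. All are the authors' values for single peaks. The labels name GRCh37, but the positions were read as GRCh38. GRCh38 starts were the original exon positions recorded in GENCODE 44; no coordinate was converted. Local background was recovered as pileup plus 1 over fold, minus 1.

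Members and lists were chosen with earlier results of these data known. Genes named were the 15 most significant members, the first 8 each of those with an antisense lncRNA start, with a downstream peak, and with neither and no alternative start, the 3 longest, nearest and farthest, and up to 2 per list; others were chosen after their values were seen. A tie in distance between genes that share a TSS (3 members) went to the first symbol in alphabetical order, with read-through genes last. In a pair the tallest peak of each side was used. Upstream and downstream classes were compared by intervals and no test was run, since both come from the same 1 ChIP library, which has no replicate. The assignment was tested on simulated data. Alternatives were other windows, pairing distances, peak subsets and lncRNA starts. Python 3.11.15, pandas 2.3.3, numpy 2.4.6, scipy 1.17.1 and matplotlib 3.10.9 were used.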

Additional observations from a re-analysis of the deposited data

How the results depend on the processing

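No paired analysis of samples was possible because the ChIP and the input have 1 library each. Of 93 alternative values, 66 stayed within the interval of the reported one, or for the number of members within 1.5 times. Only the median distance from the lncRNA start to the summit could change sign, and its 13 alternatives all stayed positive. With an upstream window of 500 bp there were 404 members, 320.5 bp from the TSS and 288 bp long in the median, and the median summit lay 182 bp past the lncRNA start; fewer far summits can enter by construction. A window of 2000 bp gave a median distance of 523 bp. The more significant 4294 peaks left 308 members with a median pileup of 14 and length of 396 bp, of which 39.9% had an antisense lncRNA start and 44.5% a downstream peak; the upstream peak was the higher in 29.4% of pairs. The 1000 most significant peaks left 47 members with medians of 21 fragments, 701 bp and 505 bp upstream; 51.1% had an antisense lncRNA start, 31.9% an alternative start and 21.3% a downstream peak, and the upstream peak was the higher in 20% of 10 pairs. Both settings keep taller peaks and drop partners by construction. Peaks at the genome-wide background alone left 475 members, 44.2% with a downstream peak. Starts of lncRNAs within 500 bp gave 31.8%, canonical lncRNA transcripts 31.9% and a median of 280 bp past the start, and the start nearest the summit, added after the data were seen, 207 bp. A downstream window of 500 bp gave a partner for 30.3% and one of 2000 bp for 60.1%. Peaks of 7 fragments were the smallest called, so lower occupancy upstream was not detectable at this depth.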

Other observations

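At 11 TSSs there were 2 upstream summits, and at no TSS more. The 2 peaks of TBC1D24 had 19 and 9 fragments, at 495 and 843 bp upstream, and those of AHRR, a repressor of the aryl hydrocarbon receptor, 23 and 13 fragments at 241 and 801 bp. At TMEM243 the taller peak, with 16 fragments, lay 757 bp upstream and the other, with 12, 41 bp upstream. AHRR and TMEM243 were chosen after their values were seen.

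The starts used are those of canonical transcripts, and RefSeq places some of them elsewhere. Of 606 members matched to the RefSeq promoter table by symbol, chromosome and strand, 460 had a RefSeq start within 50 bp of the canonical one and 452 at the same base. For 91 of the 606 the RefSeq start lay upstream of the ING5 summit, for 54 of these by at most 1000 bp, so by that start the summit would be downstream.

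The distance to the next canonical protein-coding start of the opposite strand, which the definition sets beyond 1000 bp, was between 1001 and 2000 bp at 237 unpaired TSSs, and 15 of them had an upstream summit (6.33%, 3.59 to 10.2). The share was 2.80% (1.67 to 4.39) between 2001 and 5000 bp and 4.06% (3.76 to 4.37) beyond 10000 bp. Just inside the excluded range, with the opposite start at 901 to 1000 bp, 5 upstream summits had a median pileup of 11 fragments, and just outside it, at 1001 to 1100 bp, 1 had 20.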
